A study of Homo sapiens with 6 samples.

Results

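This report covers 10 genes of the platelet-derived growth factor (PDGF) and vascular endothelial growth factor (VEGF) families in HK-2 cells treated with TGF-β1. The genes were chosen by name, with earlier results of these data known. They are the PDGF ligands PDGFA, PDGFB, PDGFC and PDGFD, the PDGF receptors PDGFRA and PDGFRB, the VEGF ligands VEGFA, VEGFB and VEGFC, and the VEGF receptor FLT1. They are 10 of the 41497 named entries in the expression tables, and each of the 10 had 1 entry.

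PDGFs are secreted dimers that bind receptor tyrosine kinases on fibroblasts, pericytes and other mesenchymal cells. The PDGFRA receptor binds the A, B and C chains, and the PDGFRB receptor binds the B and D chains. In the kidney, PDGF signalling drives the growth of mesangial cells, pericytes and interstitial fibroblasts. VEGFs act mainly on endothelial cells, where VEGFA signals through KDR and FLT1, VEGFB through FLT1, and VEGFC through FLT4 and KDR. Tubular epithelium is a known source of VEGFA for the peritubular capillaries.

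Poly(A) RNA was sequenced from HK-2 cells, an immortalised line derived from human proximal tubule, with 3 control libraries and 3 libraries from cells given TGF-β1, all labelled with a time of 24 hours. All 6 libraries came from this single line, so the comparison says nothing of other lines or of tissue. The labels give a medium with fetal bovine serum, and the study's methods describe TGF-β treatment in general without serum and at doses that differ between experiments. Neither says which dose and serum state held for the sequenced TGF-β1 cells, or gives the serum state of the control cells. The labels do not say whether the libraries of a group came from separate cultures, so p-values measure only the spread between these libraries, which may be technical. In bulk RNA, a lower value from fewer expressing cells and one from less RNA per cell cannot be told apart, and the same holds for higher values.

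The libraries held 21938622 to 26906067 counts. Levels were given as CPM (counts relative to library size) after scaling by TMM, a normalisation that assumes most genes do not change, and 3 counts were worth 0.115 to 0.143 CPM. Log2 fold changes with their standard errors (SE) came from edgeR's quasi-likelihood test, with p-values adjusted by Benjamini-Hochberg over the 14860 genes that passed the filter on low counts. A gene was called at an adjusted p under 0.05. Across genes, libraries of the same group correlated at r = 0.989 to 0.992, and libraries of different groups at r = 0.961 to 0.966. Among the tubular markers, KRT8, KRT18, PAX8 and GGT1 were abundant in all libraries, whereas the proximal tubule receptor LRP2 had 0 counts throughout, and SLC34A1 and CUBN stayed under 1 CPM. Of the 12 tubular markers, 5 were called higher and 5 lower with TGF-β1, beside 22.2% and 22.1% among all tested genes. The summed level of these markers was 1004 to 1071 CPM in the control and 1207 to 1395 CPM in the TGF-β1 libraries. That rise in the sum came from the keratins KRT8 (488 to 764 CPM, group means) and KRT18 (202 to 303 CPM), whereas PAX8 (251 to 151 CPM), GGT1 (75.6 to 50.5 CPM) and EPCAM (16.4 to 6.85 CPM) were lower. AQP1 was higher, from 0.396 to 1.72 CPM. The calls of PAX2 and CUBN were lost with DESeq2 and without some single libraries.

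TGF-β1 raised 6 of the 10 genes, namely PDGFA, PDGFB, PDGFC, PDGFRB, VEGFA and VEGFC. None was called lower, VEGFB was tested and not called, and PDGFD, PDGFRA and FLT1 had too few counts to be tested. Across all tested genes, 22.2% were called higher and 22.1% lower, 44.3% in all, so calls were common in this comparison. The same 6 genes showed no overlap between the groups, each with its lowest TGF-β1 library above its highest control library. That arrangement was found in 27.9% of all tested genes and its reverse in 27.7%, which makes 55.6% without overlap. The count of 0 lower calls was also 0 with DESeq2, with limma-voom and at an unadjusted p under 0.05. The median log2 fold change of all tested genes was 0.01.

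**Figure D1:**
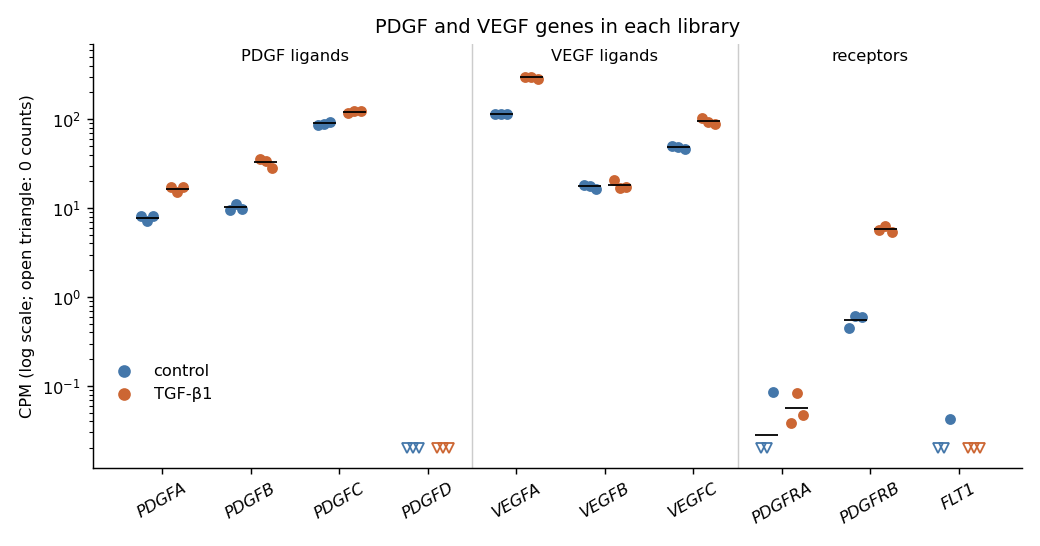
Level of each of the 10 PDGF and VEGF genes in each library, in CPM. Points are single libraries, blue for control and orange for TGF-β1, open triangles are libraries with 0 counts, and bars are group means. PDGFRB moved from 0.443 to 0.613 CPM in the control to 5.40 to 6.25 CPM in the TGF-β1 libraries, and VEGFB is the tested gene whose groups overlap.

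Promoter sequence was looked up for the genes that rose together. The RefSeq promoter table (GRCh38.p14) had a window for 7 of the 10 genes, among them PDGFA, PDGFRB and VEGFC of the 6 called genes, and gave none for PDGFB, PDGFC and VEGFA. Shown here are the 250 bases before the annotated start of PDGFRB, the gene with the largest rise, of VEGFC, which also rose, and of VEGFB, which was not called. Capitals mark the SMAD box CAGAC, the AP-1 site TGANTCA, the CCAAT box CCAAT and the GC box GGGCGG, each on either strand, with overlapping copies running together. The windows lie at chr5:150155846-150156095 on the minus strand for PDGFRB, chr4:176792923-176793172 on the minus strand for VEGFC and chr11:64234334-64234583 on the plus strand for VEGFB, and each is printed 5′ to 3′ towards its gene.
PDGFRB: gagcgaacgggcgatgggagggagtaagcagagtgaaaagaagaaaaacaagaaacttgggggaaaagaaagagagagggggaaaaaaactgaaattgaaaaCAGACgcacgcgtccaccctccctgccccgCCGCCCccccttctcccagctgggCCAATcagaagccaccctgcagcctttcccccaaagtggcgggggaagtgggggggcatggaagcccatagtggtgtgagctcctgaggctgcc
VEGFC: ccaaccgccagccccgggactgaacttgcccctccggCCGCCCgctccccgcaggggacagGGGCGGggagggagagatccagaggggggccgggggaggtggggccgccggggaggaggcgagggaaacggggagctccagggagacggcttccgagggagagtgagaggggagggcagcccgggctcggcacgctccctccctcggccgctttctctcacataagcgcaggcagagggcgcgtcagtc
VEGFB: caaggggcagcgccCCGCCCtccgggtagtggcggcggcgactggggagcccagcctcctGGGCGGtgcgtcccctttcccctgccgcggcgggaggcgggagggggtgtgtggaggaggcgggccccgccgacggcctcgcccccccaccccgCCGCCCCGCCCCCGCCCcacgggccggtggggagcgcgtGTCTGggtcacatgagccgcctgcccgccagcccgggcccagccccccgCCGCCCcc
The PDGFRB window held 1 SMAD box, starting 148 bases before the start site, 1 CCAAT box at 94 bases and 1 GC box at 118 bases. The VEGFC window held 2 GC boxes and neither a SMAD nor a CCAAT box. The VEGFB window held 1 SMAD box at 57 bases and 6 GC boxes. None of the windows printed had an AP-1 site or the hypoxia element core ACGTG. Among all 35116 windows in the table, 38.0% held a SMAD box, 6.57% an AP-1 site, 32.0% a CCAAT box, 42.6% a GC box and 18.5% the hypoxia core, so these short motifs were common. PDGFA, with 4 annotated starts, had 2 SMAD boxes in its outermost window, at 230 and 51 bases, and none in its other windows. Among the tested genes with a window, the SMAD box was thus found at PDGFRB and at 1 of 4 starts of PDGFA, which both rose. It was also found at VEGFB, which was not called, but not at VEGFC, which rose. Of the genes with too few counts to be tested, PDGFRA had a SMAD box at 230 bases and an AP-1 site at 32 bases in 1 window. PDGFD and FLT1 had no SMAD box. A match of letters is not evidence of binding.

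PDGFB, which encodes the chain that binds both PDGF receptors, was the PDGF ligand with the largest rise. PDGFB (chromosome 22, 39223359 to 39244982 on GRCh38) was at 9.53, 11.2 and 9.89 CPM in the control libraries and at 35.8, 34.1 and 28.0 CPM in the TGF-β1 libraries. The groups were well apart, with the third TGF-β1 library the lowest of its group. Its log2 fold change was 1.68 ± 0.10 (SE, n = 3 per group, edgeR adjusted p = 3.36e-07), a 3.19-fold rise.

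PDGFA, whose chain binds PDGFRA, was at 8.24, 7.11 and 8.05 CPM in the control and 17.1, 15.2 and 17.2 CPM in the TGF-β1 libraries. The groups did not overlap, and each library of a group lay close to the others. The log2 fold change of PDGFA was 1.08 ± 0.09 (SE, n = 3 per group, edgeR adjusted p = 4.34e-06), a 2.11-fold rise. PDGFA (chromosome 7, 497245 to 520668) shares a stretch of its first exon with HRAT92, a gene on the opposite strand with 15 to 41 counts per library that was not called (log2 fold change 0.53, edgeR adjusted p = 0.102). Whether the counting used strand is not given in the sources used here, so reads in that stretch could belong to either gene. PDGFA itself had 174 to 189 counts in the control and 360 to 444 in the TGF-β1 libraries.

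PDGFC, a chain secreted in latent form, had the highest level and the smallest rise among the PDGF ligands. PDGFC (chromosome 4, 156760454 to 156971799) was at 86.6, 88.9 and 93.4 CPM in the control and 117, 124 and 124 CPM in the TGF-β1 libraries. The groups did not overlap, although the gap between them was small beside the level. The log2 fold change of PDGFC was 0.44 ± 0.05 (SE, n = 3 per group, edgeR adjusted p = 7.93e-05), a 1.36-fold rise. PDGFD (chromosome 11, 103907189 to 104164147), the chain that binds PDGFRB, had 0 counts in all 6 libraries, which allows a level of up to 0.115 to 0.143 CPM per library. Such limits cover counting error only.

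VEGFA, the main growth factor for endothelial cells, was the most abundant of the 10 genes. VEGFA (chromosome 6, 43770209 to 43786487) was at 115, 115 and 114 CPM in the control and 299.6, 301 and 282 CPM in the TGF-β1 libraries. The control libraries were almost identical, and every TGF-β1 library was far above them. The log2 fold change of VEGFA was 1.36 ± 0.05 (SE, n = 3 per group, edgeR adjusted p = 7.34e-09), a 2.57-fold rise.

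VEGFC, a ligand best known for lymphatic vessel growth, was at 50.3, 48.6 and 46.0 CPM in the control and 103, 93.1 and 89.2 CPM in the TGF-β1 libraries. The lowest TGF-β1 library was well above the highest control library. The log2 fold change of VEGFC (chromosome 4, 176683538 to 176792922) was 0.98 ± 0.07 (SE, n = 3 per group, edgeR adjusted p = 8.3e-07), a 1.97-fold rise.

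VEGFB, a ligand of FLT1, was the only tested gene of the 10 without a call. VEGFB (chromosome 11, 64234584 to 64239264) was at 18.3, 17.9 and 16.5 CPM in the control and 20.5, 16.9 and 17.4 CPM in the TGF-β1 libraries. The first TGF-β1 library was the highest of the 6, and the other TGF-β1 libraries lay within the control range. The log2 fold change of VEGFB was 0.06 ± 0.09 (SE, n = 3 per group, edgeR adjusted p = 0.639), and it was -0.049 without the first TGF-β1 library and -0.051 when libraries were scaled by total counts only.

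**Figure D2:**
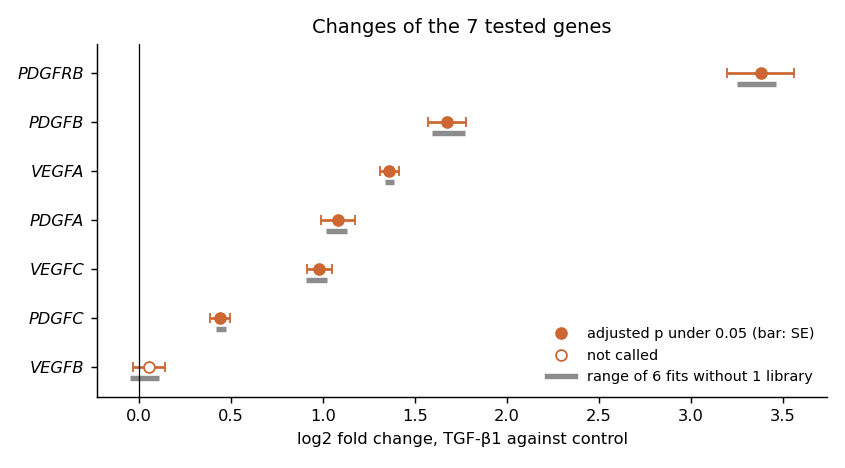
Log2 fold change of the 7 tested genes, TGF-β1 against control, with bars of 1 SE from edgeR's quasi-likelihood test. Grey bars give the range of the 6 fits that each left out 1 library, and the open point was not called. PDGFRB has the largest value at 3.38, and VEGFB at 0.06 is the only gene with values on both sides of 0.

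PDGFRB, the receptor for PDGFB and PDGFD chains and a marker of pericytes and fibroblasts, had the largest fold change of the 10 genes but a low level. PDGFRB (chromosome 5, 150113839 to 150155845) had 10, 15 and 14 counts in the control and 149, 151 and 113 counts in the TGF-β1 libraries. In CPM this was 0.443, 0.613 and 0.597 against 5.72, 6.25 and 5.40, with no overlap. The log2 fold change of PDGFRB was 3.38 ± 0.18 (SE, n = 3 per group, edgeR adjusted p = 1.07e-07), a 10.4-fold rise. All its libraries reached the low-count filter's minimum count of 10, but the control libraries, at 10 to 15 counts, only just. Its control level thus rests on few reads.

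The other receptors were barely detected. PDGFRA (chromosome 4, 54229127 to 54298245), the receptor for the A, B and C chains, had 0, 0 and 2 counts in the control and 1, 2 and 1 counts in the TGF-β1 libraries. The ratio of its depth-scaled counts, TGF-β1 over control, was 1.98 with an exact 95% interval from 0.284 to 21.9, so a change in PDGFRA could not be detected at this depth. FLT1 (chromosome 13, 28300346 to 28495128), the receptor for VEGFA and VEGFB, had 1 count in the third control library and 0 in the other 5 libraries. For single genes, the smallest exact permutation p that 3 against 3 libraries allow is 0.1, and the values were 0.4 for PDGFRA and 1 for FLT1.

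Because longer genes collect more reads, levels were compared between genes in TPM, which divides by gene length and scales every library to the same total. The order was the same in both groups down to the seventh gene. In the control, mean TPM was 100.6 ± 1.49 (SD, n = 3) for VEGFA, 71.1 ± 1.94 for VEGFC, 59.2 ± 3.38 for PDGFC, 32.4 ± 1.14 for VEGFB, 8.99 ± 0.823 for PDGFB, 7.77 ± 0.610 for PDGFA and 0.250 ± 0.0456 for PDGFRB. With TGF-β1, mean TPM was 238 ± 9.69 (SD, n = 3) for VEGFA, 129 ± 6.72 for VEGFC, 74.0 ± 4.47 for PDGFC, 30.9 ± 2.43 for VEGFB, 26.4 ± 3.01 for PDGFB, 15.1 ± 0.830 for PDGFA and 2.41 ± 0.214 for PDGFRB. No neighbours in this order overlapped in range within either group. Some ranges nearly touched, however. In the control, PDGFB had 8.24 to 9.87 TPM and PDGFA 7.07 to 8.18 TPM, and in the TGF-β1 libraries PDGFB had 22.9 to 28.3 TPM and VEGFB 29.3 to 33.7 TPM. PDGFRA, FLT1 and PDGFD, the last in order, were all under 0.04 TPM and cannot be ranked.

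The PDGF ligands rose by unequal amounts, so their mixture shifted. The summed TPM of the PDGF ligands was 72.5, 75.5 and 79.9 in the control and 112, 120 and 115 in the TGF-β1 libraries. PDGFC made up 77.9% ± 0.655 (SD, n = 3) of that sum in the control and 64.0% ± 2.39 with TGF-β1. PDGFB made up 11.8% ± 1.07 and 22.9% ± 2.61, and PDGFA 10.2% ± 0.884 and 13.1% ± 1.03. PDGFC thus remained the main PDGF ligand transcript in every library, while the ratio of PDGFB to PDGFA went from 1.02 to 1.40 in the control to 1.44 to 1.98 in the TGF-β1 libraries, with ranges that nearly met.

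The VEGF ligand mixture moved towards VEGFA. The summed TPM of VEGFA, VEGFB and VEGFC was 204 ± 1.60 (SD, n = 3) in the control and 398 ± 13.3 with TGF-β1. VEGFA held 49.3% ± 1.10 of it in the control and 59.8% ± 1.59 with TGF-β1, VEGFC 34.8% ± 0.697 and 32.4% ± 1.04, and VEGFB 15.9% ± 0.438 and 7.78% ± 0.580. The ratio of VEGFA to VEGFC was 1.36 to 1.48 in the control and 1.73 to 1.93 in the TGF-β1 libraries. These shares are descriptions of each library and were not tested.

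**Figure D3:**
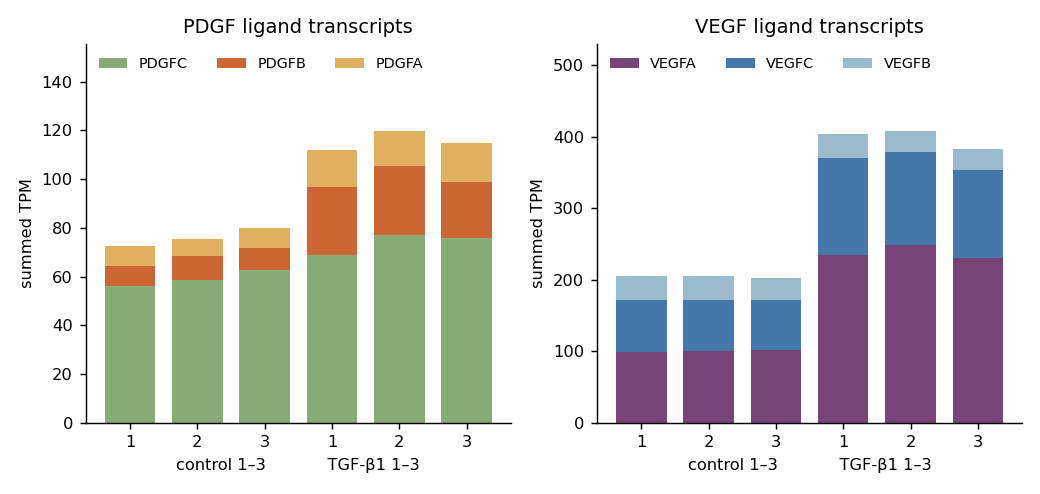
Stacked TPM of PDGFA, PDGFB and PDGFC on one side and of VEGFA, VEGFB and VEGFC on the other, for each of the 6 libraries. As a share of the bar, PDGFC is 61.4% to 66.2% in the TGF-β1 libraries, below the control range of 77.5% to 78.7%. The VEGFA share is 58.0% to 61.1%, above the control range of 48.3% to 50.5%.

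The remaining ligands and receptors of the families were also read. Of 7 such genes, 5 were tested, 2 were called higher and 3 lower, beside 22.2% and 22.1% among all tested genes. The list's median log2 fold change was -0.39 against 0.01 for all tested genes. The co-receptors NRP1 and NRP2, which bind VEGFs without a kinase of their own, moved in opposite directions. NRP2 was at 264, 267 and 265 CPM in the control and 417, 480 and 463 CPM with TGF-β1, and its log2 fold change was 0.77 ± 0.06 (SE, n = 3 per group, edgeR adjusted p = 2.21e-06). NRP1 was at 241, 244 and 248 CPM in the control and 182, 190 and 188 CPM with TGF-β1, and its log2 fold change was -0.39 ± 0.05 (SE, n = 3 per group, edgeR adjusted p = 8.33e-05). In TPM, the ratio of NRP2 to NRP1 went from 0.395 to 0.405 in the control to 0.850 to 0.935 in the TGF-β1 libraries.

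PGF, a further FLT1 ligand, was higher at 2.42 ± 0.132 against 1.26 ± 0.372 CPM (SD, n = 3; log2 fold change 0.95, edgeR adjusted p = 0.00614). FLT4, the VEGFC receptor, was lower at 1.64 ± 0.127 against 3.41 ± 0.493 CPM (log2 fold change -1.05, edgeR adjusted p = 6.27e-04). PDGFRL, a receptor-like protein without a kinase, was lower, the log2 fold change being -0.94 ± 0.13 (SE, n = 3 per group, edgeR adjusted p = 2.13e-04). KDR, the main signalling receptor for VEGFA, had 1 count in 1 TGF-β1 library and 0 elsewhere. VEGFD had 2 counts in TGF-β1 library 1, 1 count in TGF-β1 library 3 and 0 elsewhere. Hence the VEGFA receptors FLT1 and KDR were at or near 0 in both groups, while VEGFA and the neuropilins were abundant.

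Several of these ligands need cleavage or are held by other secreted proteins. Of 13 genes for such proteins, 9 were tested, 6 were called higher and 2 lower, beside 22.2% and 22.1% among all tested genes. The list's median log2 fold change was 0.51. FURIN, a protease that processes PDGF and VEGFC precursors, was at 44.1, 46.7 and 44.9 CPM in the control and 143, 133 and 126 CPM with TGF-β1 (log2 fold change 1.57 ± 0.06, SE, edgeR adjusted p = 1.08e-08). CCN2, which binds VEGFA, rose from 153 ± 14.3 to 451 ± 14.6 CPM (SD, n = 3; log2 fold change 1.56, edgeR adjusted p = 2.67e-08). SPARC, which binds PDGFB, THBS1, which binds several growth factors, PLAU, a protease that can activate PDGFD, and CCBE1, a cofactor for VEGFC processing, had log2 fold changes of 0.85, 0.59, 0.51 and 0.36.

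The protease genes named with particular ligands did not all move with them. PLAT, the protease that activates PDGFC, fell from 70.4 ± 1.15 to 19.4 ± 0.993 CPM (SD, n = 3; log2 fold change -1.86, edgeR adjusted p = 3.36e-09), with all TGF-β1 libraries at or under 20.4 CPM. ADAMTS3, which cleaves VEGFC together with CCBE1, fell from 111 ± 7.40 to 46.6 ± 4.66 CPM (SD, n = 3; log2 fold change -1.25, edgeR adjusted p = 4.35e-07). PDGFC and VEGFC transcripts were therefore higher in the same libraries where the transcripts of these activating proteases were lower. PCSK7, another convertase, was not called at 0.02 (edgeR adjusted p = 0.904). PCSK5, PCSK6, ST14 and A2M were under the filter.

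Downstream of the receptors, 20 genes for adaptors and effectors were read. All were tested, of which 5 were called higher, 1 lower and 14 were not called, beside 44.3% called among all tested genes, and their median log2 fold change was 0.05. RASA1, a negative regulator of RAS that docks on PDGFRB, was at 75.4, 77.7 and 81.6 CPM in the control and 172, 211 and 208 CPM with TGF-β1 (log2 fold change 1.33 ± 0.08, SE, edgeR adjusted p = 2.58e-07). The adaptor SHC1, the phosphoinositide 3-kinase subunits PIK3R1 and PIK3R2, and the adaptor SH2B3 had log2 fold changes of 0.66, 0.42, 0.20 and 0.32. PIK3R2 (edgeR adjusted p = 0.0221) was no longer called without the third control library (0.0874) and with total counts only (0.244). The single lower call, the exchange factor SOS1, was -0.22 (edgeR adjusted p = 0.0404) and was lost with DESeq2 (adjusted p = 0.0531) and limma-voom (adjusted p = 0.0530). SOS1 also lost its call without the second control library (edgeR adjusted p = 0.0865), the third control library (0.156) or the third TGF-β1 library (0.0639), while leaving out the first TGF-β1 library raised the count of higher calls to 8.

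Genes known to follow ERK activity showed no common direction. Of 11 such genes, 10 were tested, 2 were called higher and 2 lower, beside 22.2% and 22.1% among all tested genes. The list's median log2 fold change was 0.10. SPRY1, an inhibitor of receptor signalling, fell from 4.86 ± 0.900 to 1.34 ± 0.0414 CPM (SD, n = 3; log2 fold change -1.86, edgeR adjusted p = 1.22e-05), and the phosphatase DUSP5 had -0.82 (edgeR adjusted p = 5.84e-06). The transcription factors ETV5 and ETV4 had 0.30 and 0.27 (edgeR adjusted p = 0.00346 and 0.0214), and ETV4 was not called without the first control library (0.0776), the third control library (0.0725) or the first TGF-β1 library (0.0507). DUSP6, SPRY2 and SPRY4 were at -0.23, -0.11 and 0.21, and none of them was called.

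VEGFA is a textbook target of the hypoxia-inducible factors (HIF), so the genes of oxygen sensing and other HIF targets were set beside it. Of 8 oxygen-sensing genes, 7 were tested, 1 was called higher and 2 lower, beside 22.2% and 22.1% among all tested genes. The list's median log2 fold change was -0.18. EPAS1, which encodes HIF-2α, was at 169, 154 and 134 CPM in the control and 34.1, 35.5 and 31.2 CPM with TGF-β1 (log2 fold change -2.18 ± 0.09, SE, edgeR adjusted p = 2.16e-08). HIF1A, encoding HIF-1α, was at 645, 641 and 704 CPM in the control and 458, 504 and 498 CPM with TGF-β1 (log2 fold change -0.45 ± 0.06, SE, edgeR adjusted p = 1.57e-04). Their partner ARNT was higher at 0.30 (edgeR adjusted p = 0.00162). HIF proteins are mainly regulated by degradation, which RNA does not measure. The count of lower calls in this list was 4 without the third TGF-β1 library, where EGLN3 (-1.14, edgeR adjusted p = 0.0201) and HIF1AN (-0.23, 0.0329) were also called.

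Of 12 other HIF targets, 11 were tested, 2 were called higher and 7 lower, beside 22.2% and 22.1% among all tested genes. The list's median log2 fold change was -0.19. ADM, a vasodilator peptide, was at 31.1, 28.5 and 26.8 CPM in the control and 6.87, 6.74 and 6.83 CPM with TGF-β1 (log2 fold change -2.08 ± 0.08, SE, edgeR adjusted p = 8.44e-09). CA9, a carbonic anhydrase, fell from 3.89 ± 0.487 to 1.48 ± 0.0858 CPM (SD, n = 3; log2 fold change -1.39, edgeR adjusted p = 6.58e-05). NDRG1, BNIP3 and PDK1 had log2 fold changes of -0.77, -0.56 and -0.42, whereas the glucose transporter SLC2A1 and the collagen prolyl hydroxylase P4HA1 had 0.45 and 0.32. VEGFA, at 1.36, thus lay above every tested gene of this list, whose values ran from -2.08 to 0.52. The list is only a selection of HIF targets, and ANGPTL4, given below with other angiogenic factors, rose more than VEGFA (2.69). The calls of PGK1 (-0.18) and VLDLR (-0.19) were near the threshold and were lost without some libraries, among them the first control library (edgeR adjusted p = 0.0882 for PGK1 and 0.0847 for VLDLR). Without the first TGF-β1 library, KDM3A (0.21) and LDHA (0.68) were also called, which brought the higher calls to 4. LDHA has another entry on an alternate contig, so its value of 0.52 (edgeR adjusted p = 0.0710) is uncertain, and with both entries summed it was called higher at 0.43 (edgeR adjusted p = 5.18e-04).

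**Figure D4:**
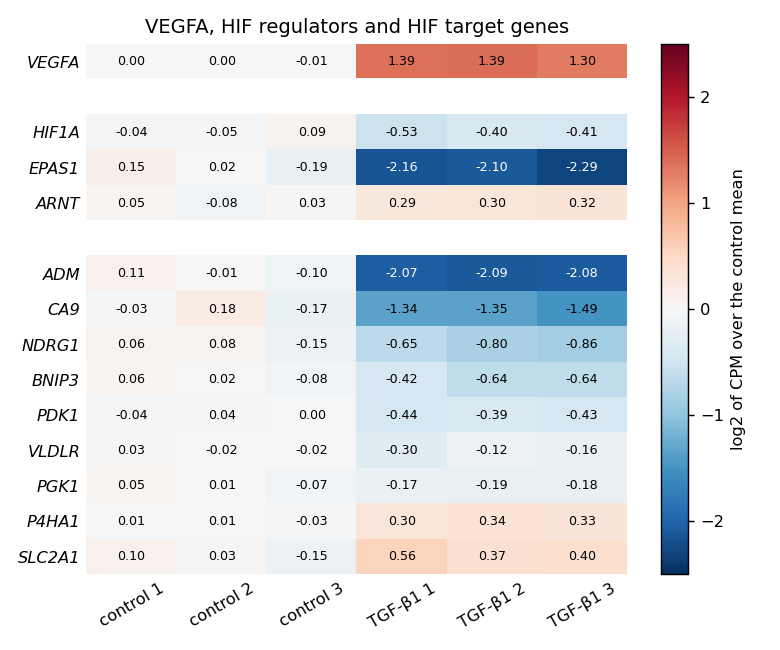
Log2 of CPM over the control mean in each of the 6 libraries for VEGFA, the called oxygen-sensing genes and the called HIF targets, with red for above and blue for below the control mean. VEGFA, with a log2 fold change of 1.36, is above it in all 3 TGF-β1 libraries, and EPAS1, HIF1A, ADM, CA9, NDRG1 and BNIP3 are below it in all 3.

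Other angiogenic factors were mixed. Of 10 genes, 7 were tested, 3 were called higher and 2 lower, beside 22.2% and 22.1% among all tested genes. The list's median log2 fold change was 0.09. ANGPTL4, a lipase inhibitor with effects on vessels, was at 21.8, 20.0 and 21.3 CPM in the control and 147, 135 and 123 CPM with TGF-β1 (log2 fold change 2.69 ± 0.08, SE, edgeR adjusted p = 1.2e-09). The fibroblast growth factors split, with FGF2 at 0.70 (edgeR adjusted p = 1.4e-05) and FGF1 at -0.79 (edgeR adjusted p = 0.00903). The chemokine CXCL8 had 0.38, and THBS2, an inhibitor of angiogenesis, had -0.54. THBS1, given above among the binding proteins, moved the other way at 0.59. HBEGF and EDN1 were not called, and ANGPT1, ANGPT2 and HGF had at most 2 counts in a library.

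**Figure D5:**
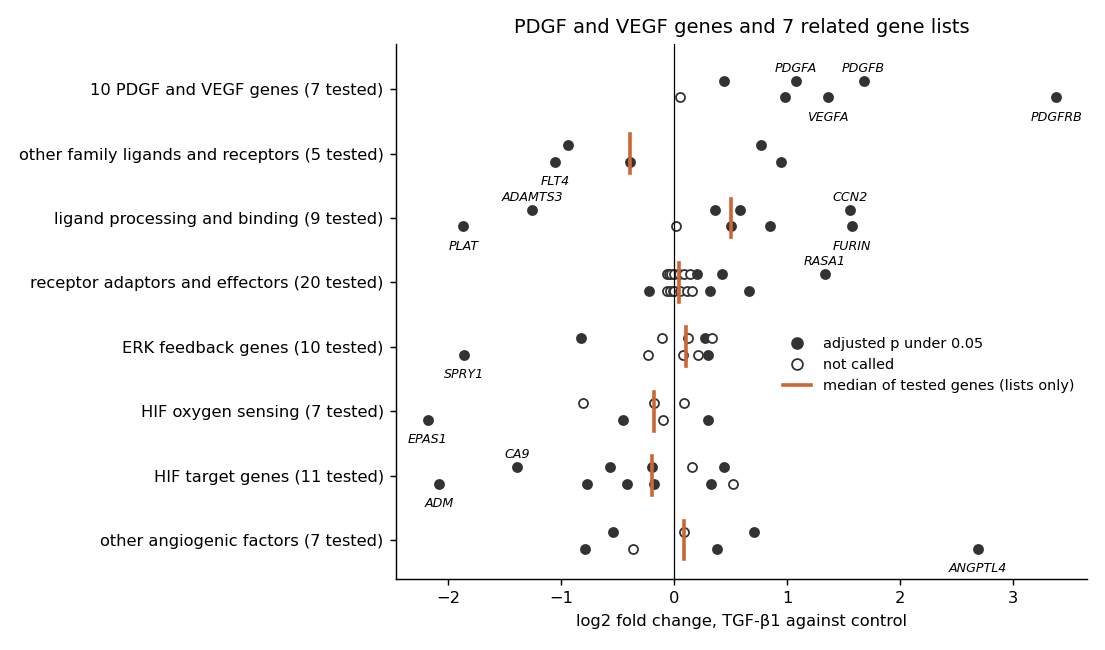
Log2 fold change, TGF-β1 against control, of each tested gene among the 10 PDGF and VEGF genes and in 7 related lists; filled points were called at an adjusted p under 0.05, open points were not, and vertical bars are list medians. The 6 called PDGF and VEGF genes lie between 0.44 and 3.38, while the receptor adaptors gather near 0 around a median of 0.05.

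Since PDGFRB marks pericytes and fibroblasts, and VEGF receptors mark endothelium, the markers of those cells were read in the same libraries. Of 10 fibroblast and pericyte markers, 7 were tested, 1 was called higher and 4 lower, beside 22.2% and 22.1% among all tested genes. The summed level of these markers was 104 to 112 CPM in the control and 91.7 to 95.1 CPM with TGF-β1. COL6A3 was the higher one, at 2 to 4 counts in the control and 34 to 41 counts with TGF-β1. LUM and NOTCH3 made up most of the sum, LUM with 61.7 ± 5.12 CPM in the control and 51.0 ± 1.05 CPM with TGF-β1 (SD, n = 3) and NOTCH3, which was not called, with 35.1 to 36.8 CPM and 33.1 to 36.8 CPM. THY1 and TCF21 were lower (log2 fold changes -1.72 and -1.58), as was RGS5 (-0.35), whose call was lost with DESeq2 (adjusted p = 0.159). RGS5 also lost its call with no low-count filter (edgeR adjusted p = 0.102) and with the replicate block (0.0522). Leaving out any control library, or the first or second TGF-β1 library, lost it too (edgeR adjusted p = 0.0582 to 0.109). DCN, ACTA2 and DES had at most 6 counts in any library. Of 10 endothelial markers, 4 were tested, 3 were called higher (ROBO4, ESAM and ERG) and 1 lower (CDH5), with a summed level of 5.15 to 5.58 CPM in the control and 9.12 to 9.79 CPM with TGF-β1. ROBO4 went from 1.63 ± 0.428 to 4.26 ± 0.256 CPM and ESAM from 0.903 ± 0.179 to 2.90 ± 0.348 CPM (SD, n = 3). ERG, at 0.56 (edgeR adjusted p = 0.0357), lost its call with DESeq2 (adjusted p = 0.195), with total counts only, with no low-count filter and in 5 of the 6 analyses that left out 1 library, namely each library but the first control (edgeR adjusted p = 0.0623 to 0.133). CDH5 had 29, 16 and 17 counts in the control and 0 in all TGF-β1 libraries. PECAM1 had 4 to 5 and VWF 1 to 2 counts in the control libraries and 0 with TGF-β1, and KDR and EMCN had at most 1 count in a library. The part of other cell types in the values of PDGFRB and the other genes was not tested.

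For the called genes with the largest changes and a mean of at least 5 CPM, the genes of most similar pattern were found by Pearson's r of log2 CPM over the 6 libraries among 10718 genes. These were DENND2B (r = 0.9997), FERMT2 (r = 0.9987) and COPG1 (r = 0.9986) for PDGFB, INAVA, DLX1 and COL1A1 (each r = 0.9996) for VEGFA, and ZNF215 (r = 0.9989), STT3A (r = 0.9976) and LINC01638 (r = 0.9976) for PDGFA. With 6 libraries in 2 groups, r mostly reads the shared difference between groups, and 169, 389 and 105 genes had r over 0.99 with PDGFB, VEGFA and PDGFA.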

How the data were processed

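RNA was measured in 6 libraries of HK-2 cells, grouped by their labels into 3 control and 3 TGF-β1 libraries. Poly(A) RNA was sequenced as paired-end reads. The deposited tables hold raw counts per gene, and the TPM and FPKM values that the authors computed from the counts and gene lengths. The submitters' processing notes name CASAVA, featureCounts 2.0.1, DESeq2 1.16.1 and hg38, and the aligner and annotation release are not given in the sources used here. No deposited table of comparisons was used.

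Each table held 42095 entries. Loci without a gene name (598 entries, 0.396% to 0.464% of counts) were left out of library sizes and tests, and 7 records broken over several lines were rejoined. Recomputed TPM and FPKM values differed from the deposited ones by at most 3.57e-06. Counts were tested with edgeR 4.0.16 (R 4.3.3) after filterByExpr (minimum count 10) and TMM, with robust quasi-likelihood dispersions and a two-sided test over all named genes. PDGFRA and FLT1 were compared by an exact permutation test over libraries and by an exact conditional interval that covers counting error only. Ligand shares used the deposited TPM. On simulated counts with far fewer changed genes than were called here, the fits made more false calls than the nominal level. The rate of false calls in these data was not measured.

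The 10 genes and the related lists were chosen with earlier results of these data known. All 10 genes are named. From each pathway list (marker lists aside), called genes with a log2 fold change of at least 1 in size are named, or else up to 4 called genes with the largest change, and further genes named were chosen after their values were seen. Pattern neighbours are the 3 genes of highest r for each of 3 genes.

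Alternatives were DESeq2 1.42.0, limma-voom (limma 3.58.1), RLE factors, total counts only, no low-count filter, a mean of at least 50 counts, summed entries of a name, a replicate block, and each library left out in turn. Ligand shares were also computed in FPKM, which cannot change them. Replicate numbers did not pair the libraries. Promoter windows came from RefSeq (GRCh38.p14). Gene coordinates are those of the deposited tables. PDGFA, PDGFRA and VEGFA start up to 166 bases from their RefSeq starts.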

Additional observations from a re-analysis of the deposited data

How the results depend on the processing

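The 6 called PDGF and VEGF genes were called higher in all 14 alternative analyses, and none was called lower in any. Over these analyses the log2 fold change ran from 0.97 to 1.13 for PDGFA, 1.57 to 1.77 for PDGFB, 0.33 to 0.47 for PDGFC, 3.25 to 3.46 for PDGFRB, 1.25 to 1.39 for VEGFA and 0.87 to 1.02 for VEGFC. VEGFB was not called in any (adjusted p = 0.414 to 0.930 over edgeR, DESeq2 and limma-voom), and its sign turned with total counts only (-0.051) and without the first TGF-β1 library (-0.049), within a range of -0.049 to 0.11 when 1 library was left out. Ligand shares are the same in FPKM by construction, since TPM and FPKM differ within a library only by a constant factor, so this is no check. Total counts only moved the median of all genes by -0.11, and its calls were 2134 higher and 4590 lower, against 3294 and 3288 with TMM.

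List counts that changed by over 1.5 times were few. With total counts only, lower calls were 4 for receptor adaptors, 4 for ERK feedback genes and 5 for oxygen-sensing genes, against 1, 2 and 2, and ERK feedback genes had 1 higher call against 2. DESeq2 and limma-voom gave 0 lower adaptors, SOS1 being lost. A mean of at least 50 counts left 1 higher call among the other family genes, since PGF was filtered out. Leaving out 1 library gave 4 to 8 higher and 0 to 1 lower adaptors, 1 to 2 higher ERK feedback genes, 2 to 4 lower oxygen-sensing genes and 2 to 4 higher HIF targets. The cause of these changes was not tested.

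Deviations of libraries with the same replicate number correlated at 0.111, -0.0117 and 0.0762, and not every library correlated best with its own number. With the replicate block, 6790 genes were called against 6582, all 6 PDGF and VEGF calls held, and 4 oxygen-sensing genes were lower, EGLN3 and HIF1AN being added. PDGFRB's control level, PDGFRA and FLT1 are limited by depth.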

Other observations

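PDGFRB has close relatives among receptor tyrosine kinases, and these were read after their values were seen. CSF1R, the receptor for macrophage colony-stimulating factor, lies 474 bases from PDGFRB on the same strand (chromosome 5, 150053295 to 150113365 on GRCh38). CSF1R had 90, 106 and 100 counts in the control libraries and 686, 556 and 511 in the TGF-β1 libraries, with no overlap. Its log2 fold change was 2.55 ± 0.09 (SE, n = 3 per group, edgeR adjusted p = 4.30e-09), beside 3.38 ± 0.18 for PDGFRB. The nearest tested gene on the other side of PDGFRB, TCOF1, was 201852 bases away and was not called (log2 fold change 0.09, edgeR adjusted p = 0.185). FLT3, a further relative, had 12, 9 and 8 counts in the control and 29, 29 and 20 with TGF-β1 (log2 fold change 1.40 ± 0.28, SE, edgeR adjusted p = 0.00191). KIT, which lies on chromosome 4 with PDGFRA, had 0 counts in all 6 libraries.

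Each of the 7 tested PDGF and VEGF genes has a nearest tested gene, not overlapping it, on either side. Of these 14 neighbours, 3 were called higher, 5 lower and 6 were not called, while 44.3% of all tested genes were called. SCIRT beside VEGFA was higher with a log2 fold change of 1.02 (edgeR adjusted p = 0.00226). POLR1C, not among these neighbours because its annotated span covers VEGFA on the same strand, was higher at 0.31 (edgeR adjusted p = 0.00325). The nearest tested genes beside PDGFC were lower with TGF-β1, GUCY1B1 with a log2 fold change of -0.27 (edgeR adjusted p = 0.00621) and GLRB with -0.72 (edgeR adjusted p = 9.52e-06). CBX7, next to PDGFB, was lower at -0.61 (edgeR adjusted p = 0.00177). DNAJC4, 303 bases from VEGFB, was not called (-0.02, edgeR adjusted p = 0.952), and PPP1R14B on the other side of VEGFB was higher at 0.79 (edgeR adjusted p = 2.03e-05). The neighbours were chosen by position, and those named here after their values were seen.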
